A study of Mus musculus with 2 samples.

Results

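Hepatocytes leave quiescence when growth factors bind receptor tyrosine kinases at their surface. The main ones in liver are hepatocyte growth factor, which binds MET, the ligands of the epidermal growth factor (EGF) family, which bind the ErbB receptors, and the bile acid-induced hormone FGF15, which binds FGFR4 together with the co-receptor β-Klotho. All of these receptors signal through adapter proteins to the RAS-ERK kinase cascade, and ERK in turn induces genes that damp the signal. The 10 genes described here are 4 ligands (*Hgf*, *Tgfa*, *Hbegf* and *Areg*), 5 receptors (*Met*, *Egfr*, *Erbb2*, *Erbb3* and *Fgfr4*) and the co-receptor *Klb*. They were picked by name for these roles, from 53241 gene symbols in the deposited liver tables, and all 10 had a row. The choice was made with earlier results of these data known.

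The libraries were 1 control and 1 iFIRKO liver mRNA library. iFIRKO mice carry Adipoq-CreERT2, a tamoxifen-activated Cre recombinase driven by the adiponectin promoter, and Insr flox/flox alleles, so that the insulin receptor gene is deleted in adipocytes and not by design in liver. The control is labelled WT, whereas the methods of the study describe control mice as IR flox/flox without Cre. Male mice aged 7 weeks in both groups were given tamoxifen at 100 mg/kg on 5 days, and liver was taken 3 days after the last dose. Whether a library came from 1 mouse or from pooled mice is not given in the sources used here, so for every difference below the effect of the genotype cannot be told apart from that of the individual mice, and no p-value was computed. Values are normalized reads, the deposited log2 values returned to the linear scale. The commonest low value of each library, about 2 normalized reads, was taken as 1 read pair, so a value of 41.8 normalized reads rests on about 20 pairs. Read pairs given below are estimates on this assumption. Gene positions are those of GENCODE M21 on the GRCm38 (mm10) build. Fold changes are iFIRKO over control, each with 4.18 normalized reads added, and intervals are 95% exact Clopper-Pearson intervals of the plain ratio, which cover counting error only.

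Of the 10 genes, 8 reached the minimum of 41.8 normalized reads in 1 or both libraries. *Erbb3* was the 1 gene more than 1.5-fold lower in the iFIRKO library, and none of the 8 was more than 1.5-fold higher. Among all 13391 genes tested, 7.29% were past this fold downwards and 4.46% upwards, so 1 of 8 lower and 0 of 8 higher are not set apart from the background as counts. The counting interval of the log2 ratio excluded 0 for 4 of the 8 (*Met*, *Erbb3*, *Tgfa* and *Fgfr4*), against 39.9% of all genes tested. The median log2 fold change was -0.13 over the 8 genes and 0.01 over all genes tested.

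**Figure D1:**
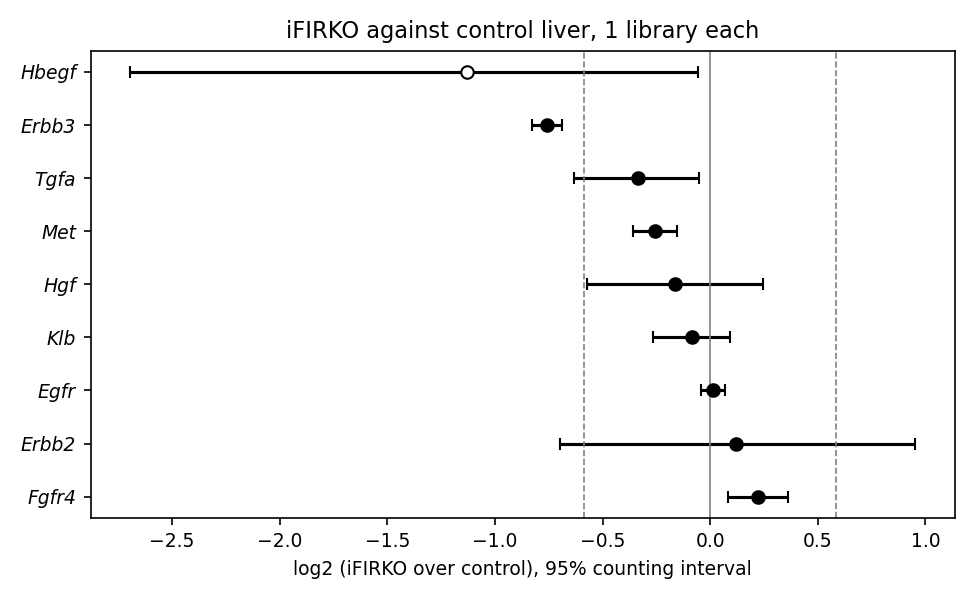
Log2 ratio of the iFIRKO to the control library for the 9 genes with more than 3 read pairs in each library, with 95% counting intervals (bars), 1 library per genotype. Dashed lines mark 1.5-fold, the open symbol is *Hbegf*, below the expression minimum, and *Erbb3* is the 1 filled symbol outside the dashed lines, at -0.76.

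Read per kilobase of exon, so that genes of different length can be set side by side, *Erbb3*, *Egfr*, *Fgfr4*, *Met* and *Klb* stood above each of the 4 ligand genes in both libraries, whereas *Erbb2* lay below *Tgfa* and *Hgf*. In control liver, with 95% exact Poisson counting intervals where neighbours are compared, the order was *Erbb3* (1485 normalized reads per kilobase), *Egfr* (958), *Fgfr4* (448), *Met* (436), *Klb* (233), *Tgfa* (70.8), *Hgf* (30.4), *Erbb2* (9.89) and *Hbegf* (8.32), with *Areg* listed at 0. In this order *Fgfr4* and *Met* could not be separated by their counting intervals (417 to 480 and 415 to 457), and neither could *Erbb2* and *Hbegf* (6.48 to 14.5 and 5.02 to 12.7). *Hbegf* and *Areg* could not be separated in control (upper limit of *Areg* 6.03) or in iFIRKO liver (1.44 to 6.57 and 0.042 to 9.23). The iFIRKO interval of *Areg* also overlapped that of *Erbb2* (7.19 to 15.6). In iFIRKO liver *Egfr* came first at 967 and *Erbb3* second at 878, with intervals of 942 to 993 and 845 to 912 that did not overlap. *Fgfr4* (522) and *Met* (365) were then apart as well, and *Klb* (219), *Tgfa* (56.0), *Hgf* (27.1), *Erbb2* (10.8), *Hbegf* (3.33) and *Areg* (1.66) followed in the same order as in control. Among all tested genes with a length, *Egfr* exceeded 87.5% in control and 87.4% in iFIRKO liver. *Erbb3* exceeded 91.1% in control and 86.3% in iFIRKO liver, while *Hgf* exceeded 14.8% and 13.9%.

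**Figure D2:**
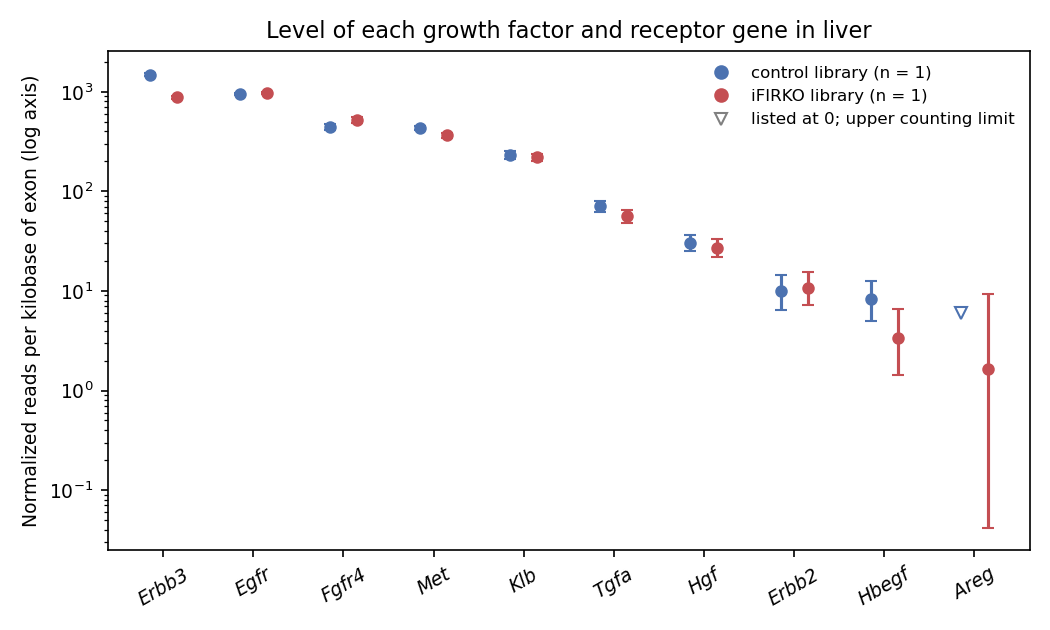
Level of the 10 genes in the control (blue) and iFIRKO (red) library, in normalized reads per kilobase of merged exons on a log axis, with 95% exact Poisson counting intervals. *Erbb3* is above *Egfr* in control and below it in iFIRKO, and *Areg*, listed at 0 in control, is drawn at its upper counting limit.

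A pair of promoters is shown, those of *Areg* and *Egfr*. *Areg* had the lowest value, though it was not separated from *Hbegf* or, in iFIRKO liver, from *Erbb2*. *Egfr* was the highest receptor with an entry in the RefSeq promoter table (GRCm38.p6, 8 of the 10 genes have one, *Erbb3* and *Hbegf* not). Each line gives the 250 bases before the annotated start on the forward strand, chr5:91139349-91139598 for *Areg* and chr11:16751953-16752202 for *Egfr*, and capitals mark matches, on either strand, to the motifs named after them.
Areg: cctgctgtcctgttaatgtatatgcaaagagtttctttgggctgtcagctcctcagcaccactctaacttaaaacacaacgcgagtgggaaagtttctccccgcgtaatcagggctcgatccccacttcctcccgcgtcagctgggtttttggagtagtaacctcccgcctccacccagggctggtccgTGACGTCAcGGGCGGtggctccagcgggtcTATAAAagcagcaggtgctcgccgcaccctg
Egfr: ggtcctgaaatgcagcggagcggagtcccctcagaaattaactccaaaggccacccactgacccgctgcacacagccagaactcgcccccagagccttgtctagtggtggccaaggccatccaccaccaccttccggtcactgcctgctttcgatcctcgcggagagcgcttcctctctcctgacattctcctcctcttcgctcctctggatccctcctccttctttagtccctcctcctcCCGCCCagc

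The *Areg* window holds 1 full cAMP response element, TGACGTCA, 1 GC box, GGGCGG, and 1 TATA box, TATAAA, which do not overlap. The *Egfr* window holds 1 GC box, on the reverse strand, and no TATA box. Of 27025 RefSeq promoter windows of this length, 1.62% hold the cAMP response element, 32.9% the GC box and 13.0% the TATA box. The GC box was found in 5 of the 8 genes (*Areg*, *Met*, *Tgfa*, *Egfr* and *Fgfr4*) and the TATA box in *Areg* alone among them. The sequence TGACTCA, an AP-1 site, was found in *Met* (4.43% of all windows), the E-box CACGTG also in *Met* (6.05%), and CCAAT in *Erbb2* (34.5%). The GC content of the windows ran from 48.0% in *Klb* to 74.0% in *Met*, with a median of 52.0% over all windows.

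The ErbB receptors bind the EGF family and work in pairs. *Egfr* encodes the receptor for TGFα, amphiregulin and heparin-binding EGF. *Erbb3* encodes a receptor for neuregulins whose own kinase is weak and which signals through its partners, and *Erbb2* encodes a partner with no known ligand of its own. *Erbb3* (chr10:128567523-128589652, reverse strand, 28 exons) was measured at 8931 normalized reads in control liver and at 5280 in iFIRKO liver. The iFIRKO value was 0.591 times the control value (interval 0.563 to 0.621), a log2 fold change of -0.76 (interval -0.83 to -0.69) that rests on 4495 and 2623 read pairs. A larger change in either direction was seen in 6.96% of the genes tested.

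*Egfr* (chr11:16752203-16918158) had 10852 and 10955 normalized reads, which were nearly level. Its log2 fold change was 0.01, and the interval, from -0.04 to 0.07, lay well inside 1.5-fold in both directions. *Erbb2* (chr11:98412470-98437716) was close to the detection minimum, with 51.5 normalized reads in control liver and 56.4 in iFIRKO liver, from 26 and 28 read pairs. The difference of 0.12 on the log2 scale had an interval of -0.70 to 0.95, so a change of 1.5-fold in either direction was not detectable at this depth. As a share of the summed level per kilobase of the 4 ErbB genes, *Erbb3* made up 60.4% in control and 47.2% in iFIRKO liver, and *Egfr* 39.0% and 52.0%. *Erbb2* and *Erbb4*, the other neuregulin receptor gene, together stayed under 1% in both. The ratio of *Egfr* to *Erbb3* per kilobase was 0.645 in control and 1.10 in iFIRKO liver, and the sum of the 4 genes was 2456 and 1860 normalized reads per kilobase.

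**Figure D3:**
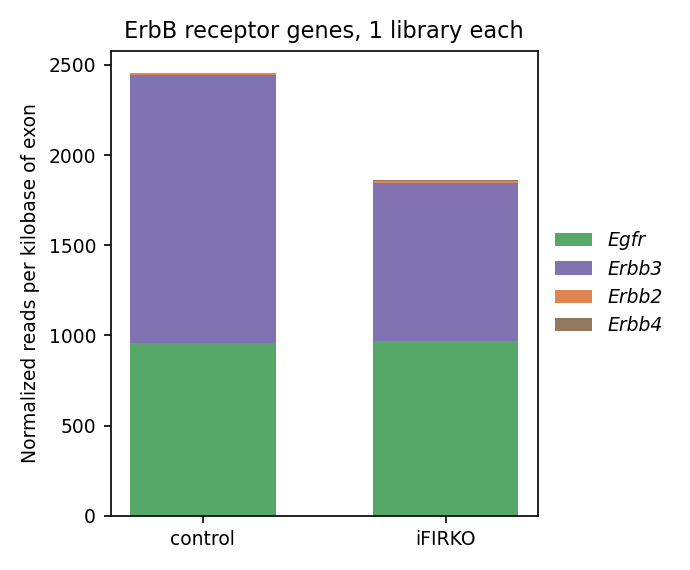
Stacked levels of the ErbB receptor genes in each library, in normalized reads per kilobase of merged exons, 1 library per genotype. The *Egfr* bars are nearly level (958 and 967), the *Erbb3* bars differ (1485 and 878), and *Erbb2* and *Erbb4* are thin bands at the top.

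The ligands of EGFR among the 10 genes were low. *Tgfa* (chr6:86195223-86275719), which encodes a membrane-bound growth factor that hepatocytes can make for themselves, was at 460 normalized reads in control liver and 363 in iFIRKO liver. The iFIRKO value was lower by less than 1.5-fold, at -0.34 on the log2 scale. Its interval, -0.63 to -0.05, reached past 1.5-fold, which is 0.585 on that scale, so a larger decrease was not excluded. *Hbegf* (chr18:36504927-36515805), the gene of heparin-binding EGF, was below the minimum in both libraries, with 40.2 normalized reads in control liver and 16.1 in iFIRKO liver, from 20 and 8 read pairs. The difference of -1.13 on the log2 scale, interval -2.70 to -0.06, is given as a value without a call. *Areg* (chr5:91139599-91148432), the gene of amphiregulin, was listed at 0 in control, for which the upper limit of the 95% exact Poisson interval is 7.33 normalized reads, and at 2.01, or 1 read pair, in iFIRKO. No fold change was formed for it.

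*Hgf* and *Met* encode the ligand and receptor of the other main hepatocyte mitogen pathway. In liver *Hgf* is known as a product of stellate and sinusoidal cells, and *Met* of hepatocytes. *Hgf* (chr5:16553495-16620152) was at 219 normalized reads in control liver and 195 in iFIRKO liver, and the log2 fold change was -0.16. Its interval, -0.57 to 0.24, included 0, so no difference was detectable at this depth, and a difference as large as 1.5-fold lay just outside it. *Met* (chr6:17463800-17573980) was at 3347 normalized reads in control liver and 2802 in iFIRKO liver. *Met* was thus lower by less than 1.5-fold: -0.26 on the log2 scale, interval -0.36 to -0.15. The ratio of *Met* to *Hgf* per kilobase of merged exons was 14.3 in control and 13.5 in iFIRKO liver. It depends on the gene model. With the longest annotated transcript *Met* was at 492 and 411 normalized reads per kilobase and *Hgf* at 63.1 and 56.2, in control and iFIRKO liver, which gives a smaller ratio.

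*Fgfr4* and *Klb* encode the receptor and co-receptor through which FGF15, made in the intestine, restrains bile acid synthesis in hepatocytes. *Fgfr4* (chr13:55152640-55168759) was at 1586 normalized reads in control liver and 1848 in iFIRKO liver, and was the one gene of the 10 that was higher in iFIRKO with an interval that excluded 0. Its log2 fold change was 0.22 (interval 0.08 to 0.36), which is under 1.5-fold. *Klb* (chr5:65348314-65384007) was at 1059 and 997 normalized reads, and its difference of -0.09 on the log2 scale had an interval that included 0, -0.27 to 0.09. The ratio of *Fgfr4* to *Klb* per kilobase was 1.92 in control and 2.38 in iFIRKO liver. Among the other FGF receptors, *Fgfr3* was next at 206 and 258 normalized reads per kilobase, followed by *Fgfrl1*, whose product lacks a kinase domain, at 166 and 212, *Fgfr2* at 99.9 and 71.6 and *Fgfr1* at 29.2 and 20.4.

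The study asked whether miR-144-3p acts on hepatocytes of these mice, and a miRNA usually pairs through its seed, the bases near its 5′ end, with 3′UTRs of its targets. The RefSeq mature sequence (chr11:78073047-78073066, GRCm38.p6) is shown with its seed, bases 2 to 8, in capitals, above the 3 stretches of member 3′UTRs (longest annotated one per gene, GENCODE M21) that hold the exact match, ATACTGT, also in capitals.
miR-144-3p: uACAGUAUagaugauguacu
Met: gtaacatcttgtATACTGTga
Egfr: gatctctcttacATACTGTtgata
Tgfa: gagaaatataagATACTGTtgtgt

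The match in *Met* lies at positions 2149 to 2155 of a 3′UTR of 2157 bases, that in *Egfr* at 6011 to 6017 of 6303 bases, and that in *Tgfa* at 3670 to 3676 of 3764 bases, and no match is followed by A. Of 3′UTRs within 20% of the same length, 17.1%, 41.6% and 27.3%, respectively, hold a match. These 3 genes are the ones with log2 fold changes of -0.26, 0.01 and -0.34 above. *Erbb3* holds no match in its 3′UTR of 1845 bases, and neither do the 3′UTRs of the other 6 genes. Of all tested genes with a 3′UTR, 13.8% held a match, with a median log2 fold change of -0.01, against 0.01 without one. miR-486a-3p was not analysed here.

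Around the receptors, 7 lists held 102 genes that supply, restrain or relay these signals, and 85 of them reached the minimum. Some of these reached it through the library in which they were higher alone, which is said where such a gene is named. Of the 85, 12 (14.1%) were more than 1.5-fold lower in iFIRKO and 2 (2.35%) more than 1.5-fold higher, with a median log2 fold change of -0.05. The background shares are the 7.29% and 4.46% given above. The lists were chosen with earlier results of these data known, so these shares are a description and not a test.

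The 2 higher genes were both neuregulins, the ligand group of ErbB3 and ErbB4. *Nrg4*, which encodes an ErbB4 ligand, was at 248 normalized reads in control liver and 425 in iFIRKO liver, higher by 0.77 on the log2 scale (interval 0.45 to 1.11). *Nrg1* was at 17.1 and 48.3 normalized reads, from 9 and 24 read pairs, higher by 1.30 on the log2 scale (interval 0.28 to 2.72). *Nrg1* reached the minimum through the iFIRKO library alone, and with the minimum required in both libraries *Nrg4* was the 1 gene higher. Among the other genes of this list, *Btc*, the gene of betacellulin, was level at 170 and 169 normalized reads. *Erbb4* had 41.3 and 49.7 and reached the minimum through the iFIRKO library alone. *Egf*, *Ereg*, *Epgn*, *Nrg2* and *Nrg3* stayed below the minimum. Per kilobase, *Nrg4* was at 40.9 normalized reads in control liver, below *Tgfa* at 70.8, and at 70.0 in iFIRKO liver, where *Tgfa* was at 56.0. No counting interval was formed for *Nrg4* per kilobase, so its order with *Tgfa* in iFIRKO was not resolved. With the longest annotated transcript *Tgfa* was at 80.3 in iFIRKO, and *Nrg4* was not varied in this way.

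The next list held genes induced by ERK signalling, most of them feedback inhibitors. Of its 10 tested genes, 5 were more than 1.5-fold lower and none was higher, and the median log2 fold change was -0.57, or -0.37 without an expression minimum. *Phlda1* was at 4637 normalized reads in control liver and 1775 in iFIRKO liver (log2 fold change -1.38, interval -1.50 to -1.27). *Spry4*, a Sprouty inhibitor of receptor signalling, had 351 and 178 (-0.96, interval -1.36 to -0.60), and *Etv5*, an ETS transcription factor, had 223 and 126 (-0.80, interval -1.28 to -0.35). *Dusp5*, an ERK phosphatase, had 57.6 and 19.4, from 29 and 10 read pairs (-1.39, interval -2.72 to -0.44), and reached the minimum through the control library alone. The fifth was *Spred1*, an inhibitor of RAS activation, named beyond the rule for named genes, with 435 and 278 (-0.64), and it was not past the fold with a pseudocount of 41.8 normalized reads. The number of lower genes was 4 with that pseudocount, 4 with the minimum required in both libraries and 2 for a fold above 2. *Dusp6*, the cytoplasmic ERK phosphatase, had 2151 and 1690, a log2 fold change of -0.35 that is under 1.5-fold. The list holds 15 genes, of which 4 were below the minimum, among them *Spred3* and *Dusp4* with values above 0 (0.41 and 0.04), and *Spry3* was not analysed here.

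The relay itself was more even. Of 22 adapter and RAS-ERK cascade genes, all 22 were tested, 21 stayed within 1.5-fold and the median log2 fold change was 0.04. *Map2k2*, the gene of the kinase MEK2, was at 3190 normalized reads in control liver and 3832 in iFIRKO liver. *Ksr1*, a scaffold of the cascade, was the exception at 154 and 100 normalized reads (log2 fold change -0.60, interval -1.15 to -0.07), and it was not past the fold under a scaling to hepatocyte markers or a pseudocount of 41.8 normalized reads.

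Of 18 genes that restrain the receptors, 17 stayed within 1.5-fold, with a median of -0.04. *Errfi1*, which encodes an inhibitor of EGFR and other ErbB kinases, was the most abundant of these, with 50232 and 46030 normalized reads, and *Ptprf*, a receptor phosphatase gene, had 5837 and 6448. *Socs2*, better known as a target and inhibitor of growth hormone signalling, had 741 and 250 normalized reads (log2 fold change -1.55, interval -1.87 to -1.27). Of the 9 tested genes for proteases and partners that release EGF family ligands, none was past 1.5-fold, and *Adam9* (3013 and 3367) and *Frmd8* (1854 and 2186) were the most abundant.

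In the list of HGF activators, inhibitors and MET partners, 3 of 13 tested genes were more than 1.5-fold lower. *St14*, the gene of matriptase, an activating protease, was at 74.9 normalized reads in control liver and 14.1 in iFIRKO liver, from 38 and 7 read pairs. Its log2 fold change was -2.11 (interval -3.83 to -1.24), and it reached the minimum through the control library alone. The number of lower genes was 2 with the minimum required in both libraries and 1 with a minimum of 209 normalized reads. *Plau*, the gene of urokinase, had 103 and 54.0 (-0.89, interval -1.65 to -0.23), and *Cd44*, a co-receptor of MET that leukocytes also express, had 1048 and 592 (-0.82, interval -1.04 to -0.62). The abundant genes were within 1.5-fold, with *Plg*, the gene of plasminogen, at 102750 and 81575 normalized reads, and *Sdc1*, the gene of syndecan-1, at 20324 and 22976.

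In the FGF list, 2 of 9 tested genes were more than 1.5-fold lower and the median log2 fold change was -0.48. *Nr0b2*, the gene of SHP, a repressor of bile acid synthesis, had 1480 and 861 normalized reads (-0.78, interval -0.96 to -0.61). *Cyp7a1*, the rate-limiting enzyme of bile acid synthesis, had 6698 and 4351 (-0.62, interval -0.70 to -0.54), and under a scaling to hepatocyte markers it was not past the fold. *Cyp8b1*, the enzyme for cholic acid, was in the other direction at 16126 and 19288 normalized reads (0.26), and *Sdc4*, a proteoglycan gene, had 16451 and 11248 (-0.55), both under 1.5-fold. *Fgf15* and *Kl* were listed at 0 in both libraries, and *Fgf21* was below the minimum.

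**Figure D4:**
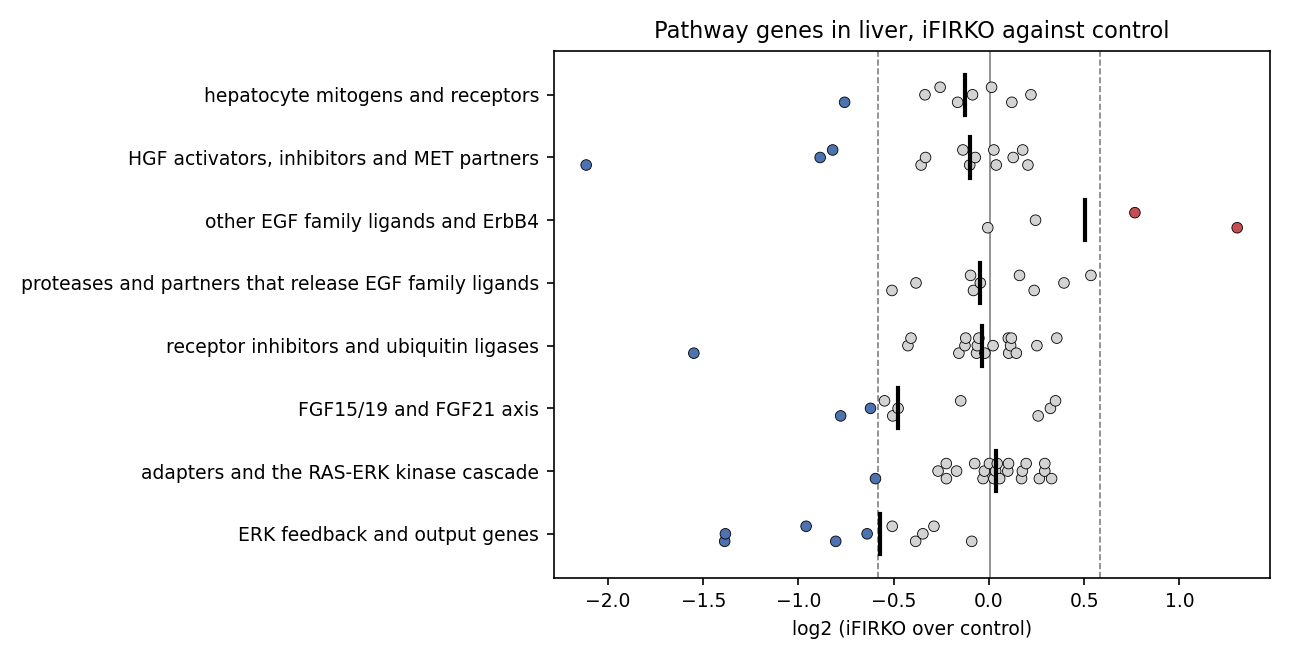
Log2 ratio of iFIRKO to control for each tested gene of the 10-gene set and of the 7 pathway lists (points, blue past 1.5-fold lower, red past 1.5-fold higher), with list medians (black bars), the median of all genes tested (grey line) and 1.5-fold (dashed lines). The 10 tested ERK-induced genes lie left of 0 with a median of -0.57, and the 2 red points are *Nrg4* and *Nrg1*.

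Markers of several other liver cell types were lower in the iFIRKO library, and in bulk liver fewer cells of a type and less RNA per cell cannot be told apart. Hepatocyte markers, among them *Alb* (log2 fold change -0.08) and *Hnf4a* (29516 and 28673 normalized reads), were abundant in both libraries, as the liver label implies. Their median log2 fold change was -0.04 over 9 genes, 1 of which, *Apoa1*, was past 1.5-fold lower. *Insr*, the floxed gene, was at 4246 normalized reads in control liver and 3692 in iFIRKO liver (-0.20, interval -0.29 to -0.11), and it is not a test of the deletion, which the design places in adipocytes. Of the non-parenchymal lists, stellate markers were level, with a median of 0.10, none of 12 past the fold and summed levels of 30979 and 30907 normalized reads. Kupffer cell markers were lower (7 of 10 past the fold, median -0.62, summed levels 42281 and 27396), and so were endothelial markers (4 of 11, median -0.47, summed levels 17202 and 12340). Of 10 leukocyte markers 5 were tested, all 5 past the fold downwards, with a summed level over the 10 of 1667 and 746 normalized reads and no marker at 0 in both libraries. *Cd79a* (113 and 17.1 normalized reads) and *S100a8* (117 and 32.2) reached the minimum through the control library alone. Of those below it, *Ms4a1*, *Nkg7*, *Cd3e* and *Cd3d* had log2 values of -0.45, -0.33, -0.75 and -0.83. *Ly6g* had too few read pairs for a value. Cholangiocyte markers had a median of -0.23 with none of 5 tested genes past the fold, and summed levels of 2357 and 2036. The part of these shifts in the values of *Erbb3*, *Hgf*, *Hbegf*, *Cd44*, *Plau*, *St14*, *Phlda1*, *Dusp5*, *Spry4* and *Etv5* was not tested.

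**Figure D5:**
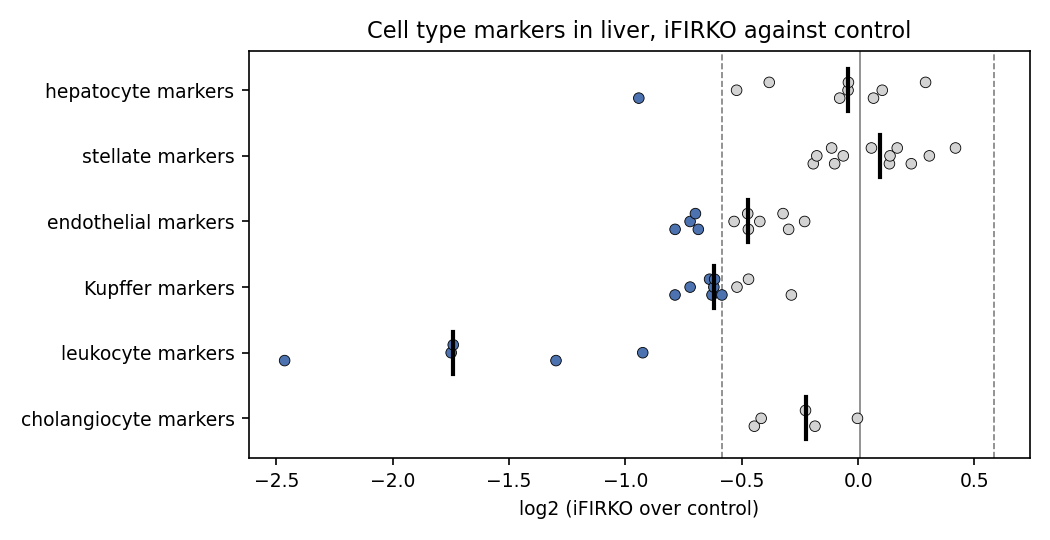
Log2 ratio of iFIRKO to control for each tested marker gene of 6 cell types (points, blue past 1.5-fold lower), with list medians (black bars) and 1.5-fold (dashed lines). Stellate and hepatocyte medians lie near 0 (0.10 and -0.04), and Kupffer cell, endothelial and leukocyte medians lie at -0.62, -0.47 and -1.74. The leukocyte median is over the 5 tested markers only, of which *Cd79a* and *S100a8* reached the minimum through the control library alone.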

How the data were processed

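Liver mRNA of 1 control and 1 iFIRKO sample was analysed. Per the labels, libraries were stranded TruSeq mRNA libraries and the build named in the submitters' processing notes is mm10. The authors deposited 1 value per gene symbol, a normalized read count on the log2 scale. The aligner, counter and normalization are not given in the sources used here, nor whether counting used strand.

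Values were returned to the linear scale, with deposited zeros kept at 0. The commonest low value of each library, 1.99 (control) and 2.01 (iFIRKO) normalized reads, was taken as 1 read pair. Of values under 100 normalized reads, 40.5% and 41.1% were then within 0.01 of a whole number of pairs, so read pairs (a total of 21138484 in control and 20652740 in iFIRKO) are estimates and no count model was used. Of 53342 rows, the row with the larger total was kept where a symbol had several. A CPM of 1 corresponds to 41.8 normalized reads, the minimum in 1 or both libraries. The pseudocount was a CPM of 0.1. The fold of 1.5 is the one used in the study. No fold change was formed where a library had 3 read pairs or fewer for the gene.

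Positions, merged exon lengths and 3′UTRs came from GENCODE M21 (GRCm38), which holds 1 gene of the same symbol for 98.5% of tested genes. Genes named are the 10 members and, per pathway list, up to 4 genes past the fold and the 2 most abundant. A gene that this rule names is not reported here. *Spred1*, other members of the ligand and receptor families, *Mst1*, the floxed gene, single markers and genes that overlap a member are named beyond the rule, after their values were seen. Members and lists were chosen with earlier results of these data known. The calculation was tested on simulated data. Intervals used scipy 1.17.1, tables pandas 2.3.3 and numpy 2.4.6, and plots matplotlib 3.10.9, under Python 3.11.15. The minimum, pseudocount, scaling, fold, shared symbols and transcript length were each varied.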

Additional observations from a re-analysis of the deposited data

How the results depend on the processing

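The 6 alternatives to the pseudocount and scaling, which are the ones that can move a single fold change, gave 48 values for the 8 tested members, and 48 lay inside the counting interval of the value reported. *Erbb3* ranged from -0.77 to -0.71. The number of members past the fold downwards was 2 without an expression minimum, where *Hbegf* enters, and 0 with a fold above 2. The number of pathway genes past the fold upwards was 1 with the minimum in both libraries, 1 when the minimum was raised to 209 normalized reads and 1 for a fold above 2. The number downwards under these settings was 10, 8 and 4, and it was 14 without an expression minimum. The gene lost upwards was *Nrg1* under either change of the minimum, and *Nrg4* for a fold above 2. Those settings change which genes are tested or the fold itself.

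Over all genes, 597 were higher and 976 lower. These counts were 371 and 576 when 41.8 normalized reads were added, 1957 and 2619 without a minimum, 288 and 440 when the minimum was raised to 209, and 209 and 267 for a fold above 2. Levels per kilobase depend on the gene model: with the longest annotated transcript, *Hgf* was 63.1 in control, not 30.4, *Met* (492) stood above *Fgfr4* (477), and *Hbegf* (13.9) above *Erbb2* (10.3). Depth limits *Erbb2*, *Hbegf*, *Areg*, *Nrg1*, *Dusp5* and *St14*. No paired analysis was possible because there was a single library of each genotype.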

Other observations

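Most of the 10 genes have little sequence in common with other genes. For *Met*, *Erbb2*, *Erbb3*, *Hbegf*, *Areg*, *Fgfr4* and *Klb*, 0% of stretches of 50 bases from their annotated transcripts occur in transcripts of another gene, and for *Egfr* 0.231% do. For *Hgf* the share is 6.02%, all of it with *Gm43489*, a gene on the same strand that shares 484 exon bases and was at 9.94 normalized reads in control liver and 7.55 in iFIRKO liver. For *Tgfa* it is 1.08%, with *Gm43917* on the opposite strand, which was listed at 0 in both libraries. *Erbb2* shares 9 exon bases with *Mien1* on the opposite strand, which had 1268 and 1340 normalized reads.

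*Mst1*, the gene of the HGF-like macrophage-stimulating protein, was at 8318 normalized reads in control liver and 6497 in iFIRKO liver (log2 fold change -0.36, interval -0.42 to -0.29). Its receptor gene *Mst1r* was below the minimum, with 25.8 and 19.6. *Errfi1*, at 14023 and 12850 normalized reads per kilobase, stood above each of the ErbB receptor genes it restrains.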
